A study of Mus musculus with 6 samples.

Results

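The cholesterol synthesis and SREBP control genes are 30 genes of the deposited expression table, chosen by symbol: 8 of the mevalonate and isoprenoid steps, 11 of the steps from squalene formation to cholesterol, 6 that control SREBP, 2 that carry or esterify sterol and 3 of the LXR arm. All 30 were found among the 30037 named genes of the table, and all 30 were among the 15454 genes tested. RNA was sequenced from L-GMP cells, the leukaemic counterpart of the granulocyte-macrophage progenitor, which were sorted from leukaemic bone marrow (AML); the mice were aged 8 to 10 weeks. There were 3 libraries from wild-type (WT) leukaemia and 3 from leukaemia lacking the arginine methyltransferase gene Prmt6 (Prmt6-/-, here the knockout). The lesion that started the leukaemia, the design of the Prmt6 allele and the number of mice behind each library are not given in the sources used here, so the p-values speak to no more than the spread among these libraries, which may be technical.

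Cholesterol is made in the endoplasmic reticulum from acetyl-CoA by way of mevalonate, isoprenyl pyrophosphates, squalene and lanosterol. When membrane sterol is low, the escort protein Scap carries the SREBP precursor to the Golgi, where the site proteases Mbtps1 and Mbtps2 release the transcription factor that switches on nearly every enzyme of the pathway. When sterol is plentiful, Insig proteins hold Scap back, and oxysterols activate the LXR receptors Nr1h2 and Nr1h3, whose targets lower uptake and raise efflux.

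The knockout was checked on its target. Prmt6 (chromosome 3, 110246109 to 110250998, GRCm38, protein-coding) read 7.82, 7.60 and 7.41 in the WT libraries and 5.42, 5.46 and 5.48 in the knockout libraries on the deposited log2 scale. Every knockout value lay below every WT value (difference -2.16, SE 0.0977, limma adjusted p = 3.57e-06). In the authors' deposited table the log2 fold change of Prmt6 is -7.66 (adjusted p = 3.05e-27). The difference on the deposited scale is therefore not a measure of the Prmt6 RNA that remained. The progenitor markers were present in every library, Cd34 at 10.36 to 10.56, Kit at 9.66 to 10.30 and Fcgr3 at 13.18 to 13.39. Of the 7 progenitor and leukaemia markers listed, Meis1 rose by 0.49, Fcgr2b fell by 0.88 and 5 did not pass. Mpo, 1 of these 5, had the largest difference of the list, -1.11 (limma adjusted p = 0.139). It read 15.27, 15.19 and 16.29 in the WT and 13.34, 14.37 and 15.72 in the knockout, a wide spread between libraries. Kit differed by -0.29 (limma adjusted p = 0.0961) and is lower in the authors' deposited table (adjusted p = 0.0481). Of 29 markers of other cell types 21 were tested, 2 passed as higher (Klf1 and Cd3d) and 4 as lower (Cd79b, Vcam1, Adgre1 and Pecam1). That is 28.6% of those tested, the same share as of the 7 progenitor and leukaemia markers, beside 33.0% of all genes tested. The defining markers Pax5, Cd3e, Ncr1, Pf4, Marco and Cdh5 stood at or below 1 in every library. Summed as linear values, the 5 macrophage markers came to 5456 to 7290 in the WT and 2441 to 2721 in the knockout, and the 5 B cell markers to 743.9 to 821.3 and 318.5 to 414.3. The part of these differences in the results below was not tested. In bulk RNA, fewer cells of a type and less RNA per cell cannot be told apart.

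Sc5d, Dhcr7, Msmo1, Cyp51 and Sqle, enzymes of the steps from squalene to cholesterol, rose in the knockout, as did Mvk and Idi1 of the mevalonate steps, while Pmvk, Fdps, Tm7sf2 and the LXR receptor Nr1h3 fell. Of the 30 members 11 rose, 5 fell and 14 did not pass the test. Over all genes tested, 33.0% passed, 15.0% as higher and 18.0% as lower, against 36.7% and 16.7% of the members. The share of members that fell was thus near the background. The median difference of the members was 0.06, beside 0.01 over all genes tested. The groups did not overlap for 20 members, 14 higher and 6 lower, beside 47.4% of all genes tested (23.0% higher and 24.4% lower). After quantile normalization 14 members passed as higher and 2 as lower, beside 18.3% and 15.4% of all genes tested.

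**Figure D1:**
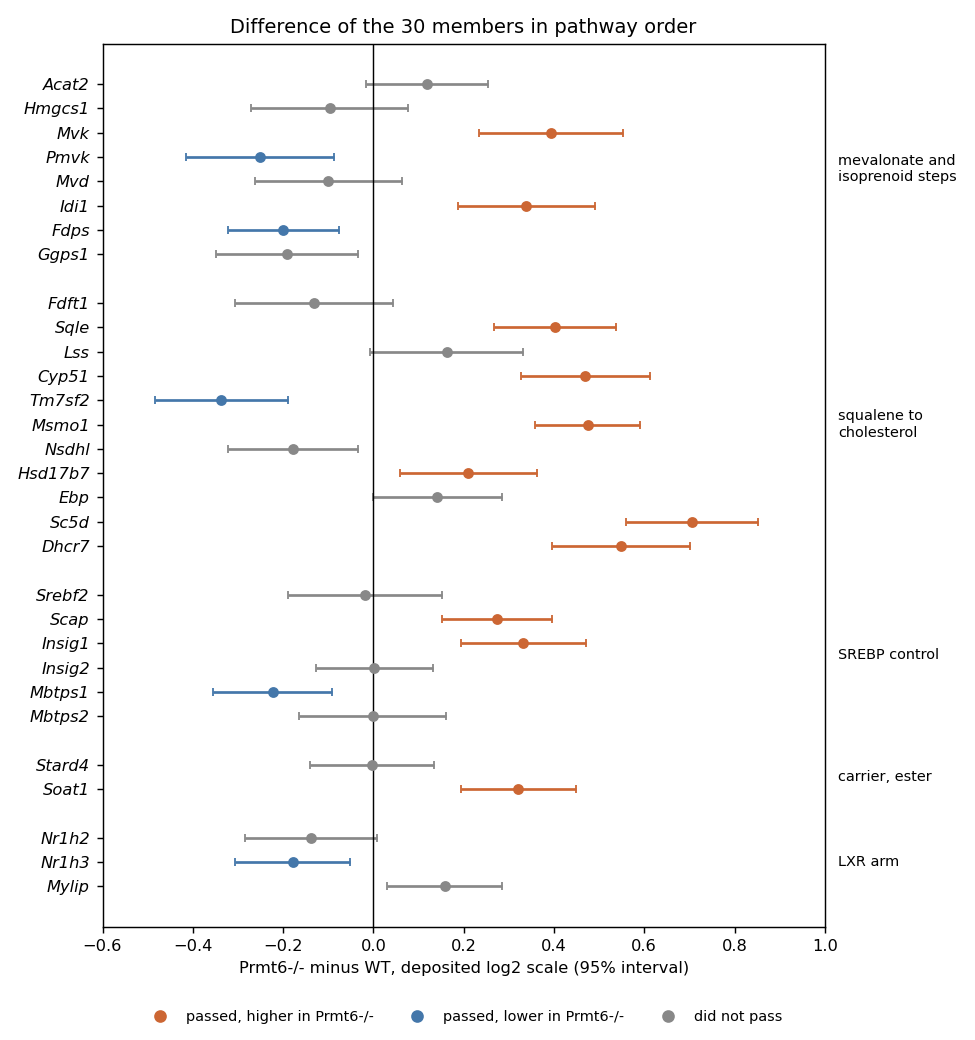
Difference between genotypes for the 30 members in pathway order, as the knockout mean minus the WT mean on the deposited log2 scale with limma's 95% interval. Filled colours mark the 11 members that passed as higher and the 5 that passed as lower; the right end of the plot is held by Sc5d at 0.71 and Dhcr7 at 0.55.

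The mevalonate arm makes the isoprenoid building blocks, and here 2 of its 8 members rose, 2 fell and 4 did not pass (median difference -0.10). These are 25.0% in each direction, beside 15.0% higher and 18.0% lower over all genes tested. Mvk, mevalonate kinase (chromosome 5, 114444269 to 114460591), read 7.82, 7.90 and 7.69 in the WT and 8.21, 8.19 and 8.19 in the knockout. The 3 knockout libraries were nearly equal and all lay above the WT (7.81 ± 0.11 against 8.20 ± 0.01, SD, n = 3; difference 0.39, SE 0.0702, limma adjusted p = 0.00268). The next enzyme, phosphomevalonate kinase Pmvk (chromosome 3, 89454541 to 89469013), went the other way, with 9.40, 9.39 and 9.19 in the WT and 9.07, 9.03 and 9.13 in the knockout. Its groups were separate by a narrow margin, since WT library 3 lay just above knockout library 3 (difference -0.25, SE 0.0721, limma adjusted p = 0.0255).

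Idi1, the isomerase that interconverts the isoprenyl pyrophosphates (chromosome 13, 8885501 to 8892451), read 10.47, 10.62 and 10.66 in the WT and 10.88, 11.01 and 10.88 in the knockout. All knockout values were above all WT values (difference 0.34, SE 0.0673, limma adjusted p = 0.00469). Fdps, farnesyl pyrophosphate synthase (chromosome 3, 89093588 to 89101959), stood at 11.98, 11.93 and 11.99 in the WT and at 11.68, 11.80 and 11.83 in the knockout. The WT libraries were tight, and knockout library 1 was the lowest (difference -0.20, SE 0.0541, limma adjusted p = 0.0201). Pmvk and Fdps, the members of this arm that fell, lie on the chromosome of Prmt6, 20.8 and 21.1 Mb from it; what part that has in their fall was not tested.

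The other 4 members of the arm did not pass. Acat2, the cytosolic thiolase of the first step, differed by 0.12 with separate groups (limma adjusted p = 0.167). Hmgcs1, HMG-CoA synthase, differed by -0.10 (95% interval -0.27 to 0.08), and Mvd, the decarboxylase, by -0.10 (-0.26 to 0.06). Ggps1, which makes geranylgeranyl pyrophosphate for protein prenylation, differed by -0.19 (limma adjusted p = 0.0635), and passed without knockout library 2 (adjusted p = 0.0379) and with a mean of at least 5 required (0.0479). The Pmvk call ended after quantile normalization (adjusted p = 0.0577), without WT library 1 (0.0828) or 2 (0.0898) and without knockout library 1 (0.0671) or 2 (0.0907). The Fdps call ended without WT library 1 (0.0557) or 3 (0.0524), without knockout library 1 (0.0562) and after quantile normalization (0.125) or intensity-dependent centring (0.0545).

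**Figure D2:**
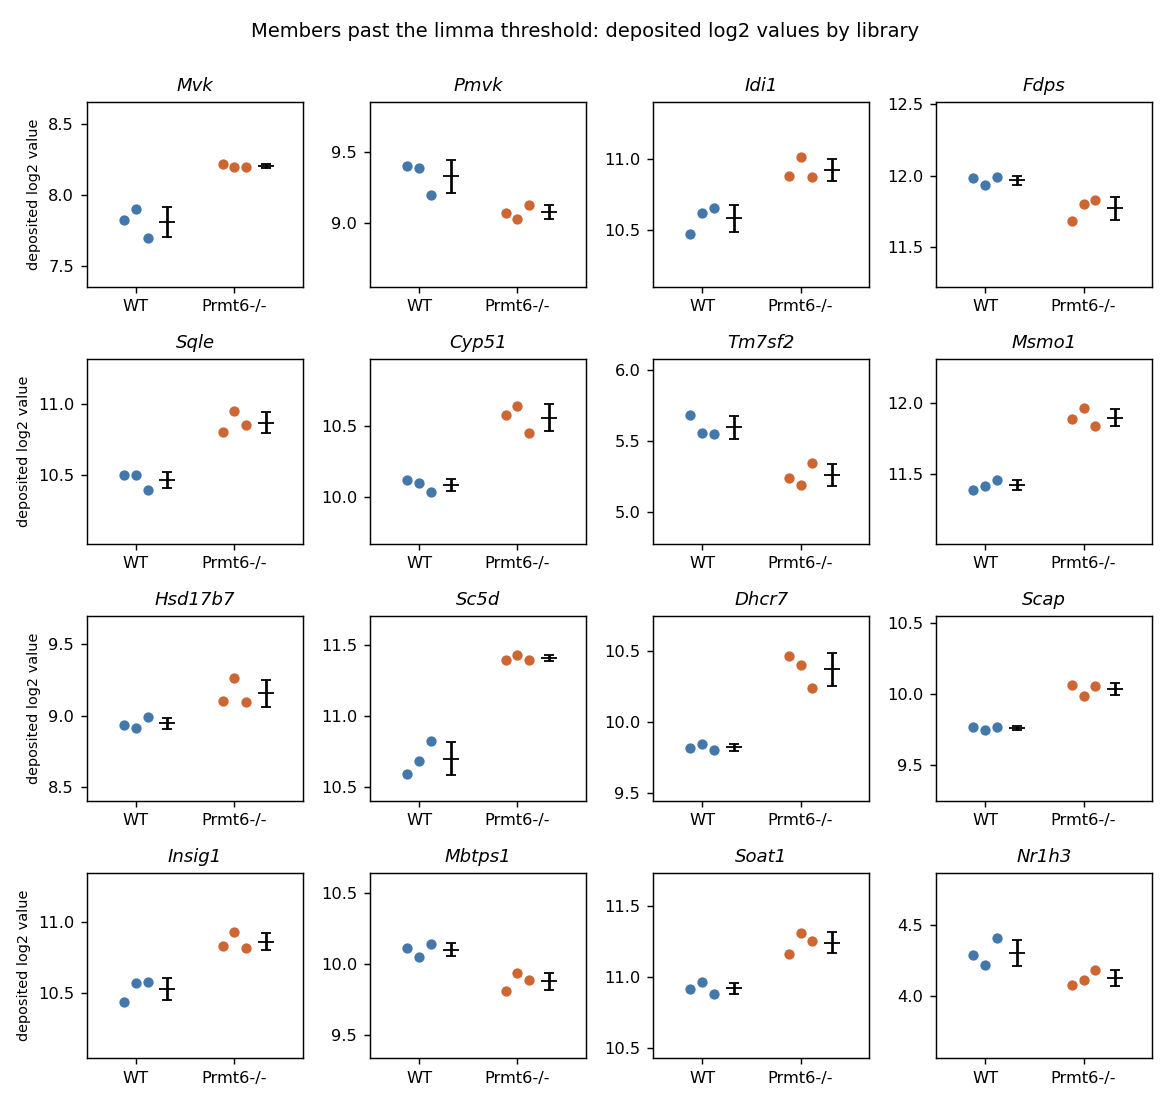
Deposited log2 values of the 16 members that passed the test, by library, with the mean and SD of each genotype (n = 3) as a black bar; each panel spans the same height on the log2 axis. Sc5d, Msmo1, Dhcr7 and Cyp51 show the widest gaps between the genotypes among the members that rose, and Pmvk and Nr1h3 narrow ones among those that fell.

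From squalene formation onwards 6 of 11 members rose, 1 fell and 4 did not pass. That is 54.5% higher and 9.09% lower, beside 15.0% and 18.0% of all genes tested. The median difference of this arm was 0.21. Squalene epoxidase, Sqle (chromosome 15, 59315077 to 59331192), is a rate-controlling oxygenase, and it read 10.50, 10.50 and 10.39 in the WT against 10.80, 10.94 and 10.85 in the knockout. No knockout library came near the WT range (difference 0.40, SE 0.0598, limma adjusted p = 0.00102). Before it, squalene synthase Fdft1 differed by -0.13 (95% interval -0.31 to 0.04), and after it, lanosterol synthase Lss by 0.16 (-0.01 to 0.33); neither passed.

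Demethylation of lanosterol came next. Cyp51, the lanosterol demethylase (chromosome 5, 4081145 to 4104746), read 10.12, 10.10 and 10.04 in the WT and 10.58, 10.64 and 10.45 in the knockout. Its groups were separate, with knockout library 3 the lowest of its group (difference 0.47, SE 0.0633, limma adjusted p = 0.000604). Msmo1, the methylsterol monooxygenase (chromosome 8, 64718139 to 64733792), stood at 11.39, 11.42 and 11.46 in the WT and at 11.89, 11.96 and 11.84 in the knockout. The spread within each genotype was small beside the gap (11.42 ± 0.03 against 11.90 ± 0.06; difference 0.47, SE 0.0516, limma adjusted p = 0.000195).

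Its partners in removing the methyl groups did not move as far. Nsdhl, the decarboxylating dehydrogenase, differed by -0.18 with all knockout values below the WT, yet did not pass (limma adjusted p = 0.061; 0.0298 in limma without trend). Hsd17b7, the ketosteroid reductase (chromosome 1, 169949535 to 169969241), read 8.94, 8.91 and 8.99 in the WT and 9.10, 9.27 and 9.10 in the knockout, with knockout library 2 the highest. It passed by a narrow margin (difference 0.21, SE 0.0671, limma adjusted p = 0.0395). The call ended without WT library 1 (0.0903), 2 (0.116) or 3 (0.0504), without knockout library 1 (0.0553) or 2 (0.141) and without the low-value filter (0.0573), and the authors' deposited table gives an adjusted p of 0.0533.

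Tm7sf2, a sterol reductase acting on the product of Cyp51 (chromosome 19, 6062821 to 6068373), was the member of the sterol arm that fell. It read 5.69, 5.56 and 5.55 in the WT and 5.25, 5.19 and 5.34 in the knockout, a low level on this scale (difference -0.34, SE 0.0654, limma adjusted p = 0.00418). In the authors' deposited table its log2 fold change is -1.44 (adjusted p = 0.00112). Lbr, the lamin B receptor, carries the same reductase activity and was higher, with 13.56, 13.60 and 13.59 in the WT and 13.70, 13.74 and 13.77 in the knockout (difference 0.15, SE 0.0403, limma adjusted p = 0.0173). The Lbr call ended without knockout library 2 (0.0672) or 3 (0.0593). Tm7sf2 shares up to 532 bases of exon with its neighbour Vps51 on the same strand, and Vps51 also passed as lower (difference -0.27, limma adjusted p = 0.0156), so reads of that stretch could enter both values. The Vps51 call ended after quantile normalization (0.0552), without WT library 2 (0.0614) and without knockout library 1 (0.0551) or 2 (0.0593).

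The last steps held the largest rises among the members. Sc5d, the sterol desaturase (chromosome 9, 42251595 to 42264256), read 10.60, 10.69 and 10.83 in the WT and 11.39, 11.43 and 11.40 in the knockout. The WT libraries were spread over a wider range than the knockout libraries, and the groups were far apart (10.70 ± 0.12 against 11.41 ± 0.02; difference 0.71, SE 0.065, limma adjusted p = 8.5e-05), a ratio of 1.63 on the deposited scale. Dhcr7, the reductase that forms cholesterol itself from its last precursor (chromosome 7, 143823145 to 143848410), stood at 9.82, 9.85 and 9.80 in the WT and at 10.47, 10.40 and 10.24 in the knockout. Here the WT libraries were the tight group (difference 0.55, SE 0.0674, limma adjusted p = 0.000368). Ebp, the sterol isomerase acting just before Sc5d, differed by 0.14 with separate groups and did not pass (limma adjusted p = 0.121). Acat2, Lss and Ebp passed after quantile normalization (adjusted p = 0.0344, 0.0483 and 0.0255).

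The arms were also summarised within each library. In the knockout, 8 of the 11 sterol genes lay above their WT mean in each of the 3 libraries, with median deviations of 0.21, 0.32 and 0.22. Of the 8 mevalonate genes, 3 lay above it in each library, with medians of -0.13, -0.05 and -0.07. No test was made of the arms against each other, because their members were listed with earlier results known.

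The promoter letters of some of the members that rose are shown beside those of Hmgcs1. As background, SREBP is known to act with the CCAAT-box factor NF-Y at promoters of cholesterol synthesis genes. Whether it acted at the promoters shown was not tested. RefSeq windows of 300 bases on GRCm38.p6 (250 before the start and 50 after it) were matched by symbol for 26 members, giving 33 windows; Fdps, Fdft1, Sqle and Stard4 were not among them. The lines give the 250 bases before the start, with every CCAAT box (ATTGG on either strand) and every match to the sterol element form TCACNCCAC in capitals:
Sc5d, chr9:42264301-42264550 (minus strand): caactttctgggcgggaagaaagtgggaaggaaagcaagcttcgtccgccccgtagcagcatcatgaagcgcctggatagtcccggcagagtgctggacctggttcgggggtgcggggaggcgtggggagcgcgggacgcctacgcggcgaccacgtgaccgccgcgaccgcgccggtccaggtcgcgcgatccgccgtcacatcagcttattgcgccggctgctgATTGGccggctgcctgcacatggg
Msmo1, chr8:64733579-64733828 (minus strand): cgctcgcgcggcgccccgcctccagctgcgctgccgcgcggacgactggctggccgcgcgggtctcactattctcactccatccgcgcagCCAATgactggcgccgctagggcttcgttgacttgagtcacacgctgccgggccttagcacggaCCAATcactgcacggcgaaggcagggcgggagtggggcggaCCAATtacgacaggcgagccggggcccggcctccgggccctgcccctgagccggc
Mvk, chr5:114444019-114444268 (plus strand): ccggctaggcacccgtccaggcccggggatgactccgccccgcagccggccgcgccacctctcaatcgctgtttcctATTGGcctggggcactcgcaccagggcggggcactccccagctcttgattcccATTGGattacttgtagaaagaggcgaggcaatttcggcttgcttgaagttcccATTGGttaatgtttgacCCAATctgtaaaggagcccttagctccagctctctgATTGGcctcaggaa
Insig1, chr5:28071162-28071411 (plus strand): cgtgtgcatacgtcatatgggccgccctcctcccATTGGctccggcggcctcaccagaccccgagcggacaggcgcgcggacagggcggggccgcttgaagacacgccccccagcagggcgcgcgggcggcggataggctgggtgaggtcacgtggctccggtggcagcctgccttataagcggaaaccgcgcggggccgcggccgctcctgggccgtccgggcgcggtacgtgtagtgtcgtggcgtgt
Hmgcs1, chr13:119690101-119690350 (plus strand): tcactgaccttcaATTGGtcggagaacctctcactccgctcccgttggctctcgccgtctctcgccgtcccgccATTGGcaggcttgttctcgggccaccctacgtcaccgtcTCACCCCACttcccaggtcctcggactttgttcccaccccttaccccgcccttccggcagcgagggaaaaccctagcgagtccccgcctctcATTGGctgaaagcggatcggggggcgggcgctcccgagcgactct

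The Mvk stretch holds 5 CCAAT boxes, those of Msmo1 and Hmgcs1 3 each, and those of Sc5d and Insig1 1 each. A CCAAT box was present for 20 of the 26 members (76.9%), and for 42.5% of the 10895 tested genes with a window. By window, 60.6% of the members' windows held one, beside 37.4% of all 32851 windows. It was present for 9 of 10 members that rose, 2 of 4 that fell and 9 of 12 that did not pass. The member that rose without a CCAAT box was Scap. Dhcr7 held one only in its window 3 (chr7:143829964-143830213), and not in windows 1 and 2 at its annotated start. The GC box GGGCGG, also counted on both strands, was present for 80.8% of the members and 64.6% of the tested genes. The sterol element form TCACNCCAC was found for 1 member, Hmgcs1, whose match begins 137 bases before the start, and in 1.24% of all windows; Hmgcs1 itself did not pass the test. Neither the stricter form, TCACCCCAC with an A before it, nor the LXR element, a repeat of AGGTCA with a gap of 4 bases, was found in a member's window, and 0.0913% and 0.0152% of all windows held them. Only the letter forms given here were searched, so a site spelled otherwise was not counted. These matches are descriptions of letters, not of bound sites.

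Among the genes that control SREBP, 2 of 6 rose, 1 fell and 3 did not pass. That is 33.3% higher and 16.7% lower, beside 15.0% and 18.0% of all genes tested, so the share that fell was near the background. Srebf2 encodes the SREBP form that drives cholesterol synthesis. It read 10.83, 10.64 and 10.58 in the WT and 10.58, 10.73 and 10.67 in the knockout, so that the groups overlapped fully. Its difference was -0.02, with a 95% interval of -0.19 to 0.15 (limma adjusted p = 0.868), and its sign turned after quantile normalization (0.06), after intensity-dependent centring (0.02), without WT library 1 (0.05) and without knockout library 1 (0.02).

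Scap, the escort of SREBP (chromosome 9, 110333288 to 110384950), read 9.77, 9.75 and 9.77 in the WT and 10.06, 9.98 and 10.05 in the knockout. The WT libraries were almost equal and the knockout libraries all higher (difference 0.27, SE 0.0533, limma adjusted p = 0.00423). Insig1, the retention protein that is itself an SREBP target (chromosome 5, 28071363 to 28078662), stood at 10.44, 10.57 and 10.58 in the WT and at 10.84, 10.93 and 10.82 in the knockout, again with no overlap (difference 0.33, SE 0.061, limma adjusted p = 0.00313). Its relative Insig2 read 9.54, 9.48 and 9.52 in the WT and 9.49, 9.58 and 9.48 in the knockout, with overlapping groups. The Insig2 difference was 0.00, with a 95% interval of -0.13 to 0.13. It turned to -0.01 without WT library 2 and to -0.03 without knockout library 2.

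The difference Insig1 minus Insig2, whose own size carries no meaning because the values are not per transcript length, changed by 0.33 log2 units from WT to knockout. Its groups were separate, and it gave p = 0.1 in an exact two-sided permutation test, the smallest that 3 against 3 libraries allow; the pair was chosen after its values were seen.

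Of the Golgi proteases, Mbtps1, which makes the first cut in SREBP (chromosome 8, 119508156 to 119558735), read 10.11, 10.05 and 10.14 in the WT and 9.81, 9.93 and 9.89 in the knockout. Its groups were separate and lower in the knockout (difference -0.22, SE 0.0584, limma adjusted p = 0.0173). That call ended without knockout library 1 (adjusted p = 0.0576) and after quantile normalization (0.072). Mbtps2, which makes the following cut inside the membrane, differed by 0.00 (95% interval -0.16 to 0.16) and did not pass. Its sign turned in 6 of 15 alternatives, among them the fits without WT library 1 (0.01) or 3 (0.05) and without knockout library 1 (0.02) or 3 (0.01).

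Sterol in excess of need is stored as ester by Soat1 or moved between membranes by carriers such as Stard4. Soat1 (chromosome 1, 156424525 to 156474331) read 10.92, 10.96 and 10.88 in the WT and 11.16, 11.31 and 11.25 in the knockout. All knockout libraries were above the WT (difference 0.32, SE 0.0562, limma adjusted p = 0.00243). Stard4, a carrier that is also an SREBP target, read 10.25, 10.10 and 10.12 in the WT and 10.19, 10.18 and 10.10 in the knockout, with full overlap. Its difference was 0.00 (95% interval -0.14 to 0.14), and its sign turned after quantile normalization (0.08), after intensity-dependent centring (0.03), without WT library 1 (0.04) and without knockout library 3 (0.03).

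In the LXR arm 1 of 3 members fell and none of the 3 passed as higher. Over all genes tested 18.0% passed as lower and 15.0% as higher. Nr1h3, the LXR form of macrophages and liver (chromosome 2, 91184061 to 91202834), read 4.29, 4.22 and 4.41 in the WT and 4.08, 4.12 and 4.19 in the knockout. This is a low level, the groups were separate by a narrow margin, and the difference of -0.18 (SE 0.0558, limma adjusted p = 0.0361) stands beside a log2 fold change of -1.57 (adjusted p = 0.0368) in the authors' deposited table. The call ended without WT library 1 (0.0729) or 3 (0.0993), without knockout library 1 (0.116) or 2 (0.0976), in limma without trend (0.0564) and with no filter on low values (0.0535). Among the macrophage markers of the same libraries, Vcam1 fell by 2.17 and Adgre1 by 0.33, while C1qa and C1qb differed by 0.00 and -0.01 and did not pass; their part in the Nr1h3 value was not tested.

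The widely expressed LXR form Nr1h2 read 10.83, 10.93 and 10.95 in the WT and 10.67, 10.77 and 10.86 in the knockout. Its groups overlapped, and the difference of -0.14 did not pass (95% interval -0.28 to 0.01, limma adjusted p = 0.137). Mylip, a ubiquitin ligase induced by LXR, differed by 0.16 with separate groups and did not pass (limma adjusted p = 0.0587), but passed with a mean of at least 5 required (0.0448) and in limma without trend (0.014).

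The size of these differences depends on the scale. The deposited values of genes of low level are drawn together, so that the difference understates their change. For the 16 members that passed, the ratio of the difference to the log2 fold change of the authors' deposited table ran from 0.114 to 0.905, with a median of 0.837. Over genes called in both, the median ratio was 0.105 below a mean of 5 (325 genes) and 0.881 from a mean of 10 upwards (1678 genes). Tm7sf2 and Nr1h3 were the members most affected among those that passed. In the authors' deposited table Sc5d has a log2 fold change of 0.80 (adjusted p = 1.43e-19), Dhcr7 of 0.66 and Mvk of 0.63. By that table's adjusted p 10 members were higher and 5 lower, beside 31.0% of all genes tested (13.6% higher and 17.5% lower). These calls include each member that passed here except Hsd17b7.

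**Figure D3:**
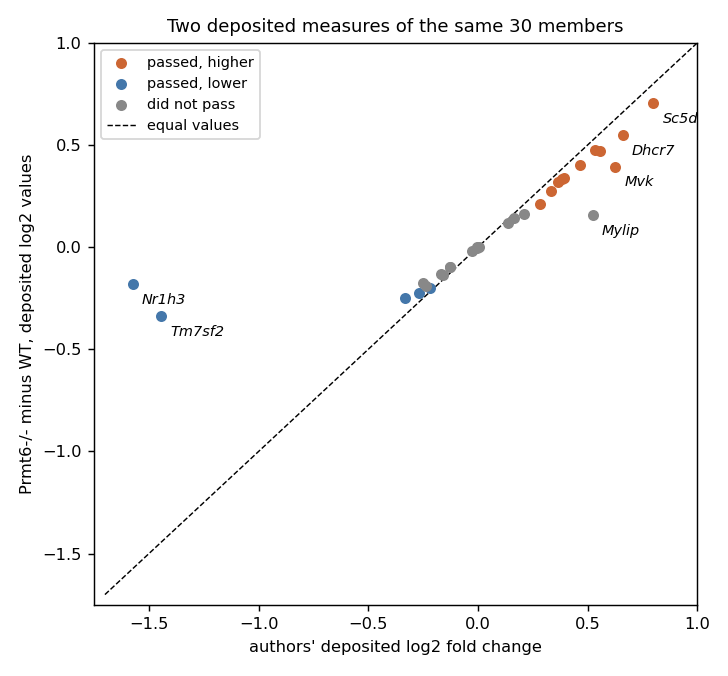
Difference of the deposited log2 values (vertical axis) against the authors' deposited log2 fold change (horizontal axis) for the 30 members, with the line of equal values dashed. Most members lie close to the line, while Nr1h3 (-0.18 against -1.57) and Tm7sf2 (-0.34 against -1.44), both of low level, lie far above it.

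Other genes of the pathway were read from lists outside the 30 members. Of 54 tested, 6 rose, 15 fell and 33 did not pass, that is 11.1% higher and 27.8% lower beside 15.0% and 18.0% of all genes tested. In the remaining enzymes and electron carriers of sterol synthesis 2 of 7 rose and 1 fell (median difference 0.02). Besides Lbr, Cyb5r3, a cytochrome b5 reductase, fell by 0.21 (limma adjusted p = 0.0176), a call that ended without WT library 2 (0.0723), without knockout library 1 (0.0551) and after quantile normalization, where the difference was -0.10 (0.127). In the branches that use isoprenoids for prenylation, dolichol and quinones 1 of 13 rose and 1 fell (median -0.07). Rce1, the protease of prenylated proteins, fell by 0.38 (limma adjusted p = 0.0105).

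The ubiquitin ligases that act on sterol synthesis in the endoplasmic reticulum included the deepest fall among the listed pathway genes on the deposited scale, where differences of genes of low level are understated. In the list of degradation factors and SREBP partners 2 of 14 rose and 4 fell (median 0.01). That is 14.3% higher and 28.6% lower, beside 15.0% and 18.0% of all genes tested. Rnf145, an Insig-binding ligase (chromosome 11, 44518964 to 44565520), read 9.99, 10.03 and 9.86 in the WT and 8.38, 8.82 and 8.82 in the knockout. Every knockout library lay more than 1 log2 unit below every WT library (difference -1.29, SE 0.115, limma adjusted p = 7.16e-05). The related ligase Rnf139 differed by -0.19 and did not pass (0.0893). Spring1, a cofactor of SREBP cleavage listed in the table under an older clone name, rose by 0.30 (0.00612).

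Genes that carry sterol out of lysosomes and between membranes made up a list of 12, of which 1 rose, 5 fell and 6 did not pass (median difference -0.12). These are 8.33% higher and 41.7% lower, beside 15.0% and 18.0% of all genes tested. Lipa, the lysosomal acid lipase that frees cholesterol from lipoprotein esters, read 10.19, 10.01 and 10.14 in the WT and 9.31, 9.36 and 9.52 in the knockout, with no overlap (difference -0.71, SE 0.0759, limma adjusted p = 0.00017). Gramd1b, a carrier of plasma membrane cholesterol to the endoplasmic reticulum, fell by 0.55 (0.000313), its relative Gramd1a by 0.81 and the carrier Stard5 by 0.64; the last pair was named after the values were seen. Among LXR and SREBP targets and oxysterol enzymes 0 of 8 rose in limma, none had higher separate groups, and 4 fell (median -0.25). Among them were Hsd3b7, a bile acid and oxysterol enzyme, at -0.67 (limma adjusted p = 0.000126) and Cyp27a1, the sterol hydroxylase, at -0.32 (0.00229). Cyp27a1 is of low level, and the authors' deposited table gives log2 fold changes of -2.36 for it and -0.79 for Hsd3b7. Srebf1, the SREBP form that drives fatty acid synthesis, differed by -0.03 (95% interval -0.17 to 0.10) and did not pass; its sign turned after quantile normalization (0.05) and without knockout library 1 (0.01). Macrophages are rich in Lipa. Of the 5 macrophage markers Vcam1 and Adgre1 were lower in the knockout, C1qa and C1qb differed by 0.00 and -0.01, and Marco stood at or below 1 in every library; the part of these markers in the falls above was not tested.

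**Figure D4:**
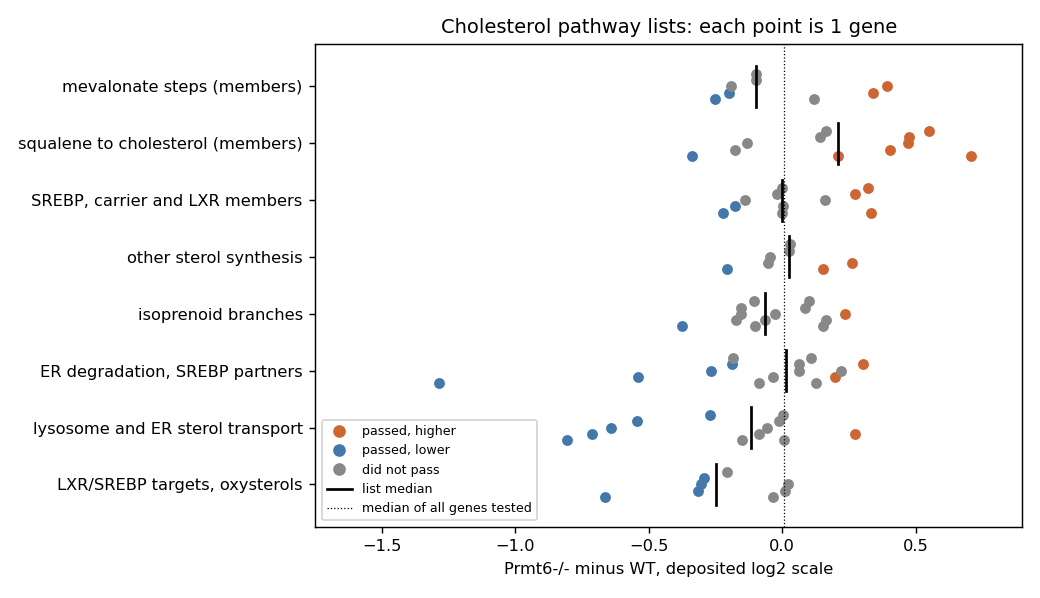
Difference between genotypes for each tested gene of the pathway lists on the deposited log2 scale, with list medians as bars and the median of all genes tested as a dotted line. The sterol arm has its median at 0.21, while the transport list and the list of LXR and SREBP targets have theirs at -0.12 and -0.25, and Rnf145 is the point farthest to the left at -1.29.

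Replicate error was somewhat larger for the members than for all genes. The SD within a genotype had a median of 0.0743 in the WT and 0.0613 in the knockout over the members. Over all genes tested the medians were 0.0595 and 0.0570. All genes tested include genes of low level, whose values are drawn together, so these medians are not like for like. Cyp51 overlaps an exon of Akap9 on the opposite strand by 166 bases, and Idi1 and Scap overlap unclassified transcripts by 323 and 327 bases. No source used here says whether the authors' counting used strand, so such reads cannot be told apart. Fdps shares 197 bases with a predicted gene on the same strand, Nr1h3 34 bases with another transcript and Mbtps2 2867 bases with Yy2, a gene inside it.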

How the data were processed

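Build GRCm38 and the tools kallisto, HOMER and Trim Galore (no version) are listed in the submitters' processing notes. Per the file headers, HOMER's differential expression command was run on a table of read counts. The authors deposited expression values on a log2 scale, normalized between samples by a transformation the file does not name, with a log2 fold change and a p-value per gene from a test it does not name. Read depth is unknown, so no counting interval is given.

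The test was limma 3.58.1 (R 4.3.3), two-sided with a mean-variance trend, over the 15454 genes that reached 1 in at least 3 libraries; p-values were adjusted by Benjamini-Hochberg, with a threshold of 0.05. Values were used as deposited, without the pseudocount foreseen for linear values. A difference is knockout minus WT. Levels were not compared between genes, because the values are not per transcript length. 1 row without a gene name was left out. On simulated data with 15454 genes, the test called 44% of 50 genes planted at a log2 difference of 0.25, 74% at 0.5 and 100% at 1. In that simulation 15254 genes were unchanged, whereas 33.0% of genes passed in the data. The adjustment is stricter where few genes change, so these rates do not give the sensitivity of the test on the real data. All members are named; of each other list the 2 called genes with the smallest p are named, and any further one was chosen with its values in view. Some genes under this rule are not reported here. The members and lists were chosen with earlier results of these data known. Positions come from GENCODE M21 and promoter sequences from RefSeq.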

Additional observations from a re-analysis of the deposited data

How the results depend on the processing

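Sc5d, Dhcr7, Msmo1, Cyp51, Sqle, Mvk, Idi1, Insig1, Scap, Soat1 and Tm7sf2 kept their direction and their call in all 15 alternatives run: 6 that leave out a library, no low-value filter, a mean of at least 5, limma without trend, robust variance, a pseudocount of 1 on linear values, quantile normalization, intensity-dependent centring, the replicate block and the authors' deposited test. The count of members that passed as higher ran from 10 to 14, beside 9.25% to 19.8% of all genes tested in each setting. That of members that passed as lower was 5 in the main fit and 2 after quantile normalization. It was 4 without the low-value filter and after intensity-dependent centring. Leaving out 1 library gave 1 to 5, with 2 without WT library 1, 3 without WT library 3 and 1 without knockout library 1. Over all genes tested, 11.5% to 25.4% passed as lower across the settings, and 14.2% to 16.7% with 1 library left out. The cause of these changes in count was not tested. Members without a call near 0 changed sign: Srebf2 (-0.0696 to 0.0537 when 1 library is left out, 0.0565 after quantile normalization, 0.0197 after intensity-dependent centring), Mbtps2 (-0.0602 to 0.0493, 0.0449 and 0.0051), Stard4 (-0.0297 to 0.0415, 0.0796 and 0.0279) and Insig2 (-0.0299 to 0.0193 when 1 library is left out), as did Srebf1 outside the members (-0.0702 to 0.0077, and 0.0492 after quantile normalization). The labels number the libraries 1 to 3 in each genotype, and deviations of same-numbered libraries correlated at 0.09, 0.07 and 0.17 across genes. The numbers are therefore not taken as pairs, although each library correlated best with its own number, a hint from the data and not from the design. With the replicate number as a block 5074 genes passed beside 5102 without it, 10 members passed as higher and 5 as lower, and the call that ended was that of Hsd17b7 (adjusted p = 0.0599). Genes of low level, such as Nr1h3 and Tm7sf2, are limited by the scale of the deposited values.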
